A study of Mus musculus with 2 samples.

Results

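Glutathione is the main small thiol of the cell, and the report follows 9 genes that make it, recycle it or spend it: Gclm, Gclc, Gss, Gsr, Slc7a11, Gpx1, Gpx4, Gstm1 and Mgst1. All 9 symbols were found in the features of the deposited matrices, out of 26124 genes with counts in either library. They were read in 2 droplet single-cell libraries of spleen cells pulled down with beads against F4/80, a macrophage surface protein. 1 library came from a mouse labelled wild-type, and 1 from a mouse labelled SCD (sickle cell disease, Berkeley model). Both mice were untreated, aged 12 to 16 weeks, and homozygous for Hbatm1Paz, a deletion of mouse α-globin. The wild-type label stands for a heterozygous control: heterozygous for Hbbtm1Tow, which removes mouse β-globin, and hemizygous for the human globin transgene Tg(HBA-HBBs)41Paz. The SCD mouse was homozygous for Hbbtm1Tow and for the transgene. With 1 mouse and 1 library a condition there was no replicate, so no test between conditions was possible. Every interval below is a 95% interval that covers counting error only. Animal, library and genotype cannot be told apart.

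Glutathione is built in a pair of steps. Glutamate-cysteine ligase, made of the catalytic subunit Gclc and the modifier subunit Gclm, joins glutamate to cysteine, and glutathione synthetase (Gss) adds glycine. Cysteine is often the scarce part, and the exchanger xCT (Slc7a11) brings it in as cystine. Glutathione peroxidases oxidize glutathione while they destroy peroxides, and glutathione reductase (Gsr) restores it with NADPH, a cycle that matters in red cells, which carry much oxygen and iron, and in the splenic macrophages that break them down. Several of these genes are textbook targets of the transcription factor NRF2.

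The wild-type-labelled library held 145953464 UMIs (counted RNA molecules) over 24144 barcodes, and the SCD-labelled library 73986356 over 15442. After filtering, 19418 and 12279 cells were kept, with medians of 4115.5 and 4571 UMIs. 65 barcodes among the kept cells occurred in both libraries. Mouse β-globin went against the labels. In erythroid-like cells Hbb-bs stood at 154 UMIs per 1000000 UMIs of the class (CPM) in the wild-type-labelled library and at 47330 CPM in the SCD-labelled library, whose genotype lacks it. Hbb-bt stood at 290.5 and 16190 CPM. Hba-a1, which both genotypes are labelled to lack, stood at 28050 and 31090 CPM. The libraries are therefore named by their labels throughout, and every direction below is from the wild-type-labelled library to the SCD-labelled library. Whether the 2 libraries were exchanged was not tested, and if they were, the sign of every ratio below would turn and the counts of lower and higher ratios would trade places.

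Cells fell into 26 clusters, of which 18 were named from marker genes and 8, with 18.1% and 21.8% of the cells, were not. Red pulp macrophage-like (RPM-like) cells, the resident macrophages that take up old red cells, numbered 4682 and 1619, or 24.1% and 13.2% of the kept cells. Clusters that carried macrophage and erythroid markers together were called EBI-like, after the erythroblastic island, a macrophage with attached erythroblasts, and numbered 5968 and 986, or 30.7% and 8.03%. There were 1832 and 155 erythroid-like cells, 998 and 766 Ly6c-high monocyte-like, 431 and 995 Ly6c-low monocyte-like, 933 and 2409 cDC2-like (conventional dendritic cells type 2) and 463 and 695 mature dendritic cell (DC)-like cells. Markers of its own type were above their level in B cells for 10 of 10 in RPM-like, EBI-like and erythroid-like cells of both libraries. The counts were 6 of 7 in Ly6c-high and 7 of 7 in Ly6c-low monocyte-like, 8 of 8 and 7 of 8 in cDC2-like and 8 of 8 in mature DC-like cells. The clusters were named from these same markers, so the counts describe the classes and do not test the names. All 10 red pulp macrophage markers were also above B cells in Ly6c-low monocyte-like and mature DC-like cells of both libraries. In erythroid-like and Ly6c-high monocyte-like cells that held in the wild-type-labelled library, against 8 and 1 in the SCD-labelled library. The macrophage classes were drawn from clusters that each came almost wholly from 1 library: RPM-like clusters 1 and 2 held 1087 and 3545 cells of the wild-type-labelled library against 10 and 47, and RPM-like cluster 25 held 50 against 1562. EBI-like cluster 21 held 8 against 677. Free RNA puts UMIs of every abundant gene into every droplet, so each level was set beside the main B lymphocyte-like cluster (495 and 1725 cells, medians of 2145 and 2897 UMIs), called the B cell reference below.

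Gclm and Mgst1 were the members whose promoter held TGACNNNGC, a short form of the antioxidant response element that NRF2 binds, so their matches are shown. The RefSeq promoter table (GRCm38.p6; 250 bases before to 50 after each start) held 12 windows of 7 members, and the motif, searched on both strands, was in 2 of the 12. It was in 12.4% of all 32851 windows of the same length. Gclc and Gsr had no entry. The 250 bases upstream of the Gclm start, chr3:122245307-122245556 on the + strand, and 30 bases of an Mgst1 promoter, chr6:138140461-138140490 on the + strand, are printed 5′ to 3′ with the match, which lies on the opposite strand, in capitals.
Gclm: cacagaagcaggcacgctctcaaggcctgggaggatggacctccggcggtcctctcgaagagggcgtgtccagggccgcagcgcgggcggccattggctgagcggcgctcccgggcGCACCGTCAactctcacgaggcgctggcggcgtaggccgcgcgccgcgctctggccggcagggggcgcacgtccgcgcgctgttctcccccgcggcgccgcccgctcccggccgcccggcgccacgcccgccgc
Mgst1: gcggggcttgGCACGGTCAggaggcggggt
A match is a run of letters and not a shown binding site. AGATAA, a motif of the erythroid factor GATA1, was in none of the 12 member windows and in 11.2% of all windows.

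The ligase subunits were highest in erythroid-like cells of both libraries. Gclm (GRCm38 chr3:122245557-122270732, + strand) stood at 876 CPM (861 to 891) in the wild-type-labelled library and at 817 CPM (768 to 867) in the SCD-labelled library, 16.0 and 27.1 times the B cell reference. Gclc (chr9:77754535-77794485, + strand) stood at 664 CPM (651 to 677) and 625 CPM (583 to 670), 9.51 and 12.5 times the reference. The log2 ratios, SCD over wild-type, were -0.10 (-0.19 to -0.01) for Gclm and -0.09 (-0.19 to 0.02) for Gclc. Over 10 other ways of processing they ran from -0.287 to -0.0237 for Gclm and from -0.895 to -0.0016 for Gclc, the lowest value of Gclc coming from clustering on all variable genes. After each cell was thinned to 1000 UMIs, Gclc had a UMI in 45.9% and 45.8% of erythroid-like cells, beside 6.92% and 4.04% of reference cells (90.6% and 89.7%, beside 14.3% and 14.1%, unthinned; median depths of 7129.5 and 6849 UMIs).

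Outside the erythroid-like cells Gclm was lower in the SCD-labelled library in each of the other 6 classes. In Ly6c-low monocyte-like cells, the patrolling monocytes, it went from 229 to 71.3 CPM, a log2 ratio of -1.69 (-1.90 to -1.47). In mature DC-like cells it went from 114 to 38.7 CPM (-1.56, -1.89 to -1.23), in cDC2-like cells from 60.3 to 26.4 CPM (-1.19, -1.44 to -0.94) and in Ly6c-high monocyte-like cells from 106 to 50.2 CPM (-1.08, -1.30 to -0.87). RPM-like cells stood at 268 and 164 CPM (-0.71, -0.81 to -0.62) and EBI-like cells at 608 and 412 CPM (-0.56, -0.63 to -0.49). The RPM-like and EBI-like ratios were under 2-fold, but in EBI-like cells Gclm was past it in 2 of 10 other ways of processing, down to -1.55. The B cell reference itself stood at 54.7 and 30.1 CPM (-0.86, -1.27 to -0.44), so cDC2-like cells, at 1.10 and 0.876 times the reference, read as background in both libraries. Gclm in Ly6c-low monocyte-like cells stood above it in both, at 4.19 and 2.37 times. Mature DC-like cells stood at 2.08 and 1.28 times and Ly6c-high monocyte-like cells at 1.94 and 1.67 times the reference. The part of macrophage RNA in the Gclm ratios of mature DC-like and Ly6c-high monocyte-like cells was not tested.

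Gclc followed Gclm in the macrophages and Ly6c-low monocytes and not in the other myeloid classes. It went from 156 to 73.9 CPM in Ly6c-low monocyte-like cells (-1.08, -1.31 to -0.85), from 235 to 121 CPM in EBI-like cells (-0.96, -1.09 to -0.83) and from 144 to 115 CPM in RPM-like cells (-0.32, -0.43 to -0.21). The EBI-like ratio of Gclc was past 2-fold in 7 of 10 other ways of processing, down to -1.61. Ly6c-high monocyte-like, cDC2-like and mature DC-like cells had log2 ratios of -0.16, -0.20 and -0.26, each with an interval that held 0, and levels between 0.651 and 1.25 times the B cell reference. Over 18 points, 9 named classes in each of 2 libraries, the log2(CPM + 1) levels of Gclm and Gclc had a Pearson r of 0.916. The points of a library share its depth and free RNA, so the r is a description. Among 13010 genes the 3 most like Gclm were Blvrb, biliverdin reductase B (r = 0.981), Grina (0.976) and March8 (0.959). The 3 most like Gclc were Bsg (0.944), Abcb6, a porphyrin transporter (0.942), and Grina (0.94).

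Gss (chr2:155563181-155592810, - strand), which overlaps Acss2 on the opposite strand, was counted sparsely. Its levels ran from 5.22 CPM in cDC2-like cells to 48.3 CPM in Ly6c-low monocyte-like cells of the wild-type-labelled library, and from 6.001 to 31.2 CPM in the SCD-labelled library. RPM-like cells stood at 27.4 and 25.9 CPM (log2 ratio -0.08, -0.33 to 0.17). Erythroid-like cells went from 18.9 to 9.25 CPM (-1.03, -1.997 to -0.20), the second value resting on 12 UMIs. The B cell reference stood at 13.5 and 8.12 CPM, so erythroid-like cells were at 1.40 and 1.14 times it. The genes most like Gss were Asph (r = 0.874), G6pdx, which makes NADPH (0.873), and Man1c1 (0.865).

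**Figure D1:**
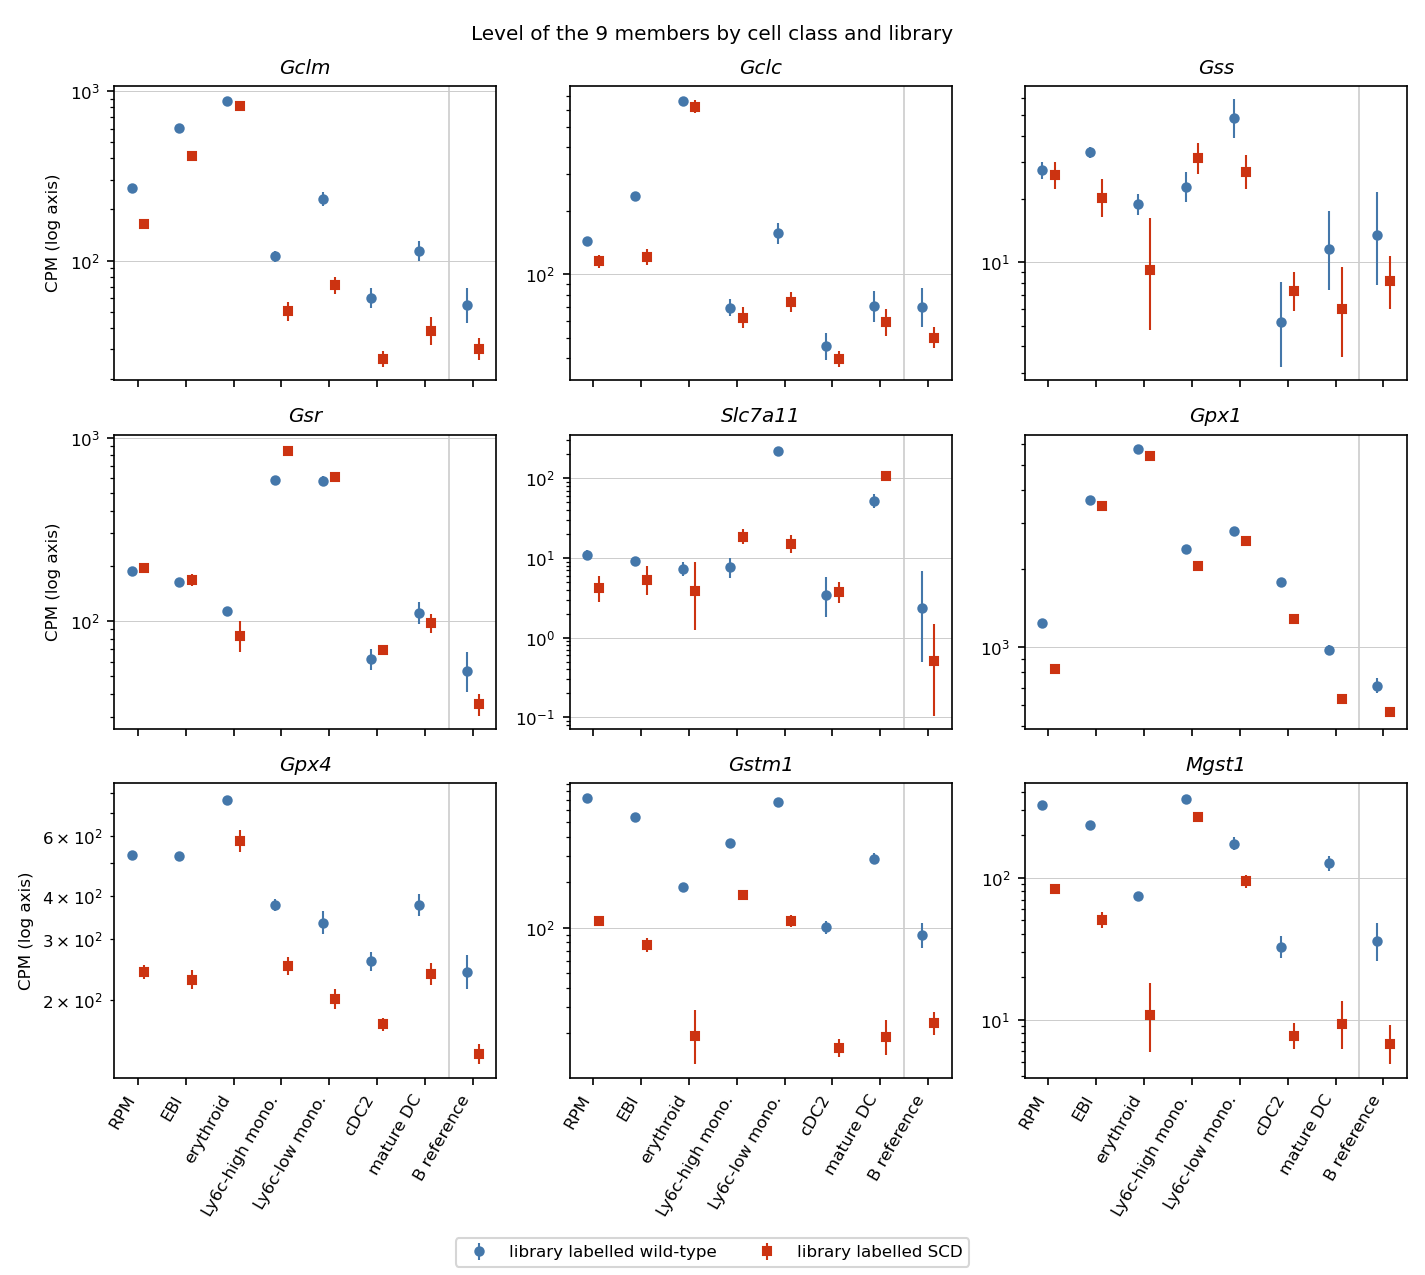
CPM of summed UMIs (log axis) of each member in 7 cell classes and the B cell reference, with 95% exact Poisson intervals (counting error only); circles are the wild-type-labelled library and squares the SCD-labelled library, 1 library each. Among the 7 classes, Gclm, Gclc, Gpx1 and Gpx4 peak in erythroid-like cells of both libraries. Gsr peaks in Ly6c-high monocyte-like cells, overlapping Ly6c-low monocyte-like cells in the wild-type-labelled library.

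Slc7a11 (chr3:49892526-50443614, - strand), the cystine importer, was low in most classes and differed in opposite directions in the few that held it. Ly6c-low monocyte-like cells of the wild-type-labelled library had 218 CPM (197 to 240; 410 UMIs), the highest level of the gene in any class, and those of the SCD-labelled library had 15.1 CPM (11.6 to 19.3; 64 UMIs), a log2 ratio of -3.85 (-4.25 to -3.47). Mature DC-like cells stood at 52.1 CPM (42.5 to 63.2) and 107 CPM (95.3 to 119), a log2 ratio of 1.03 (0.71 to 1.37). Ly6c-high monocyte-like cells had 7.64 and 18.6 CPM (1.28, 0.76 to 1.81; 51 and 85 UMIs), but this ratio was -0.50 when each library was clustered alone. In RPM-like cells the level was 10.9 and 4.14 CPM (-1.39, -1.99 to -0.84). The B cell reference held 3 UMIs in each library, a share of 0.404% and 0.174% of its cells.

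The gene was on in few cells even where it was highest. After thinning, 9.65% of Ly6c-low monocyte-like cells of the wild-type-labelled library and 0.711% of those of the SCD-labelled library had a Slc7a11 UMI (17.6% and 1.91% unthinned; median depths of 3368 and 3554 UMIs). The shares in mature DC-like cells were 4.90% and 8.38% (12.3% and 21.2% unthinned; 3287 and 3850 UMIs). Genes with the most similar levels were Mmp14 (r = 0.912), Gm37498 (0.886) and Plk2 (0.878). Gm37498 lies on the same strand within the Slc7a11 gene, so its reads and those of Slc7a11 may not be separable.

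Gsr (chr8:33652523-33698163, + strand), the reductase, was highest in monocytes and differed little between the libraries. Ly6c-high monocyte-like cells had 589 CPM (570 to 607) and 849 CPM (823 to 876), a log2 ratio of 0.53 (0.46 to 0.59), at 11.1 and 24.2 times the B cell reference. Ly6c-low monocyte-like cells had 582 CPM (548 to 618) and 608 CPM (585 to 632), which did not differ beyond counting error (0.06, -0.04 to 0.17). RPM-like cells had 187 and 194 CPM (0.05, -0.04 to 0.14) and EBI-like cells 164 and 168 CPM (0.03, -0.08 to 0.14). In each library the order of the first 4 classes was Ly6c-high monocyte-like, Ly6c-low monocyte-like, RPM-like, EBI-like, the first 2 of them overlapping in the wild-type-labelled library. There Ly6c-low monocyte-like cells came first at Leiden resolution 2, at a minimum of 200 genes and with each library clustered alone. The closest patterns were those of Cebpb, a myeloid transcription factor (r = 0.955), Dock1 (0.952) and Msrb1, a methionine sulfoxide reductase (0.942).

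Gpx1 (chr9:108338903-108340343, + strand), the cytosolic peroxidase, had the same order of classes in both libraries: erythroid-like, EBI-like, Ly6c-low monocyte-like, Ly6c-high monocyte-like, cDC2-like, RPM-like and mature DC-like, with no neighbours overlapping. Erythroid-like cells had 5763 and 5412 CPM (log2 ratio -0.09, -0.13 to -0.06) and every one of them had a UMI before thinning. EBI-like cells had 3684 and 3493 CPM (-0.08, -0.10 to -0.05). RPM-like cells had 1242 and 824 CPM (-0.59, -0.63 to -0.55), 1.75 and 1.46 times the B cell reference. No class passed 2-fold. The genes most like Gpx1 were Nfe2, an erythroid and megakaryocyte transcription factor (r = 0.908), Evi5 (0.906) and Dennd2c (0.898).

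Gpx4 (chr10:80047166-80056439, + strand), which reduces lipid peroxides in membranes, was lower in all 7 classes of the SCD-labelled library, and past 2-fold in the macrophages. RPM-like cells went from 526 CPM (515 to 537) to 241 CPM (230 to 253), a log2 ratio of -1.12 (-1.20 to -1.05). EBI-like cells went from 523 to 229 CPM (-1.19, -1.28 to -1.10). Erythroid-like cells, the highest class in both libraries, stood at 764 and 580 CPM (-0.40, -0.51 to -0.29). The B cell reference stood at 242 and 139 CPM (-0.80, -0.99 to -0.60), and the monocyte-like and DC-like classes lay between -0.59 and -0.73. Gpx4 was 2.17 and 1.73 times the reference in RPM-like cells. Its closest patterns were Syngr1 (r = 0.919), Naa80 (0.916) and Tmem256 (0.903).

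**Figure D2:**
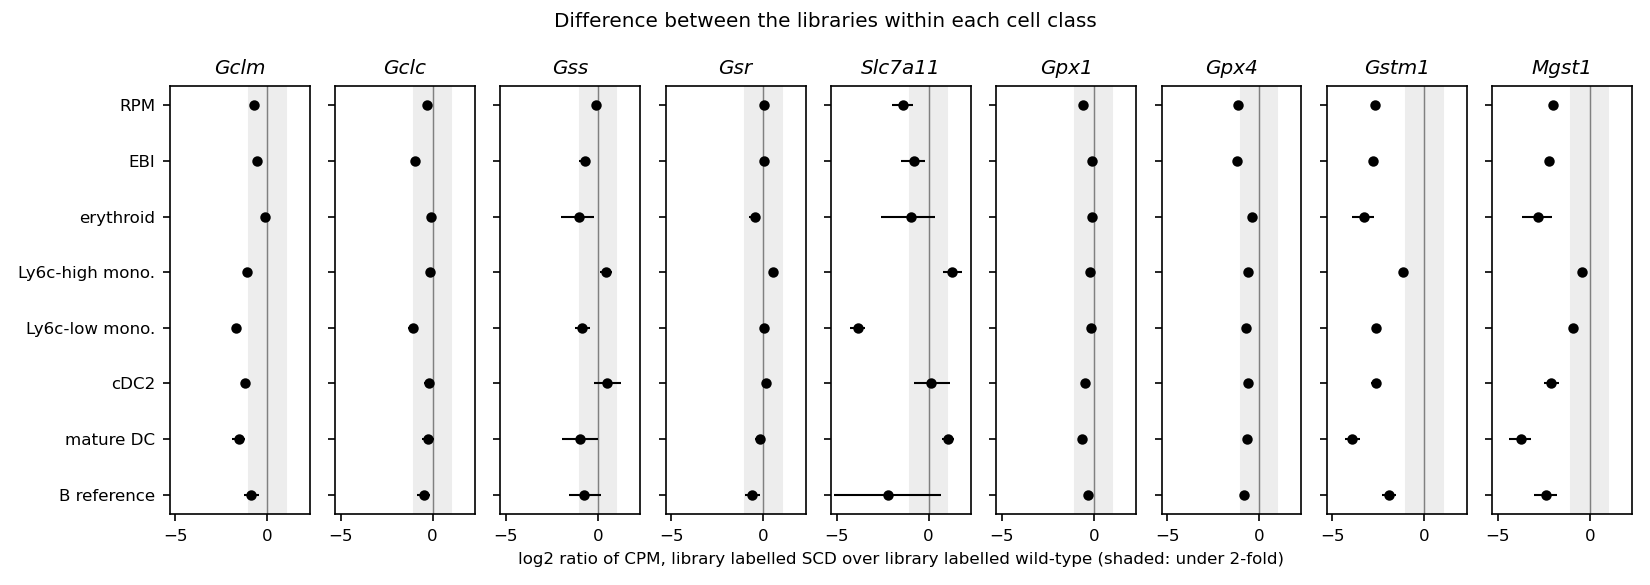
Log2 ratio of CPM, SCD-labelled over wild-type-labelled library, for each member (panels) and cell class (lines), with 95% intervals for counting error only; the shaded band is under 2-fold. Gstm1 lies left of the band in all 8 lines, and Slc7a11 lies on both sides of it.

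The transferases Gstm1 and Mgst1 had the largest differences in the macrophages. Gstm1 (chr3:108012255-108017973, - strand) joins glutathione to foreign and oxidized compounds, and Mgst1 (chr6:138140316-138156755, + strand) does so in membranes, where it also reduces lipid peroxides. In RPM-like cells Gstm1 went from 724 CPM (711 to 737) to 111 CPM (103 to 118), a log2 ratio of -2.71 (-2.81 to -2.61). Mgst1 went from 326 CPM (317 to 335) to 82.5 CPM (76.1 to 89.2), a log2 ratio of -1.98 (-2.11 to -1.86). EBI-like cells had 538 and 76.6 CPM of Gstm1 (-2.81, -2.97 to -2.66) and 236 and 50.3 CPM of Mgst1 (-2.23, -2.43 to -2.04). After thinning, 49.2% of RPM-like cells of the wild-type-labelled library and 9.47% of those of the SCD-labelled library had a Gstm1 UMI, beside 8.35% and 2.22% of reference cells (73.5% and 30.5%, beside 17.4% and 6.61%, unthinned; median depths of 2138 and 4115 UMIs). Gstm1 has close relatives, Gstm2 to Gstm7, and reads that match several of them may have been lost in counting. Selenop, which carries selenium out of the cell, had the pattern most like Gstm1 (r = 0.956), followed by Ethe1 (0.954) and S100a1 (0.949). For Mgst1 they were Hacd4 (0.965), Rnase4 (0.954) and Rassf8 (0.943). The r of Gstm1 with Mgst1 was 0.911.

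In monocytes the 2 transferases parted. Ly6c-low monocyte-like cells had 679 CPM (642 to 717) and 111 CPM (101 to 121) of Gstm1 (-2.61, -2.77 to -2.46), but 174 and 94.2 CPM of Mgst1 (-0.88, -1.10 to -0.67). Ly6c-high monocyte-like cells had 362 and 164 CPM of Gstm1 (-1.14, -1.26 to -1.02). Mgst1 was highest in those cells in both libraries, at 356 CPM (342 to 371) and 268 CPM (253 to 284), a log2 ratio of -0.41 (-0.51 to -0.31). In the wild-type-labelled library RPM-like cells were highest instead at a minimum of 200 genes, with each library clustered alone and with total-count size factors.

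Mgst1 also differed in cells where its level followed the macrophage markers. The summed CPM of the 10 red pulp macrophage markers (Spic, Vcam1, Cd5l, Adgre1, C1qa, C1qb, C1qc, Mertk, Axl and Slc40a1; none at 0 in any class) was 29870 and 28140 in RPM-like cells, 10400 and 3578 in mature DC-like, 6284 and 2917 in erythroid-like, 3375 and 2199 in cDC2-like cells and 3291 and 2289 in the B cell reference. All 10 were above the reference in mature DC-like cells of both libraries. For each 1000 UMIs of those markers, the wild-type-labelled library had 10.9 Mgst1 UMIs in RPM-like cells, 11.5 in EBI-like, 11.9 in erythroid-like, 9.67 in cDC2-like, 12.1 in mature DC-like and 10.8 in reference cells. In the SCD-labelled library the same classes had 2.93, 2.99, 3.70, 3.49, 2.61 and 2.96. The part of macrophage RNA in the Mgst1 levels of erythroid-like, cDC2-like and mature DC-like cells was not tested. Those levels are not given as expression by those cells, nor the log2 ratio of -3.75 in mature DC-like cells (126 to 9.34 CPM) as a difference of DCs.

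Gstm1 followed the markers less closely. The wild-type-labelled library had 24.2 UMIs for each 1000 marker UMIs in RPM-like cells, 26.1 in EBI-like, 29.8 in erythroid-like, 29.9 in cDC2-like, 27.5 in mature DC-like and 27.2 in reference cells. In the SCD-labelled library there was no single ratio, with 3.93 in RPM-like cells, 4.55 in EBI-like, 6.61 in erythroid-like, 7.31 in cDC2-like, 5.31 in mature DC-like and 10.2 in reference cells. Its Gstm1 level in erythroid-like, cDC2-like and mature DC-like cells was 19.3, 16.1 and 19.005 CPM, each below the 23.4 CPM of the reference, with intervals that overlapped it in erythroid-like and mature DC-like cells. Gstm1 in mature DC-like cells stood at 286 CPM in the wild-type-labelled library, a log2 ratio of -3.91, and the part of the macrophage markers in that ratio was not tested. Monocytes stood off the ratio of the other classes. Ly6c-low monocyte-like cells had 57.6 and 15.6 Gstm1 UMIs, and Ly6c-high monocyte-like cells had 48.0 and 93.3 Gstm1 UMIs and 47.3 and 152 Mgst1 UMIs, for each 1000 marker UMIs. Ly6c-high monocyte-like cells of the SCD-labelled library had a marker sum of 1760 CPM, below the reference.

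Among the other members, the same ratio separated classes for Slc7a11. Slc7a11 stood at 0.365 and 0.147 UMIs for each 1000 marker UMIs in RPM-like cells, at 18.5 and 2.12 in Ly6c-low monocyte-like cells and at 5.01 and 29.8 in mature DC-like cells. Gclm stood at 8.98 and 5.81 in RPM-like, 10.95 and 10.8 in mature DC-like and 14.1 and 28.5 in Ly6c-high monocyte-like cells. The marker sum fell from 10400 to 3578 CPM in mature DC-like and from 7534 to 1760 CPM in Ly6c-high monocyte-like cells. Its part in the Gclm values of those classes was not tested. The marker sum of Ly6c-low monocyte-like cells was also lower, at 11790 and 7111 CPM, and its part in the values of Gclm and Gclc there was not tested. The ratio of Gclm was 19.5 and 10.0 and that of Gclc 13.2 and 10.4 in those cells.

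**Figure D3:**
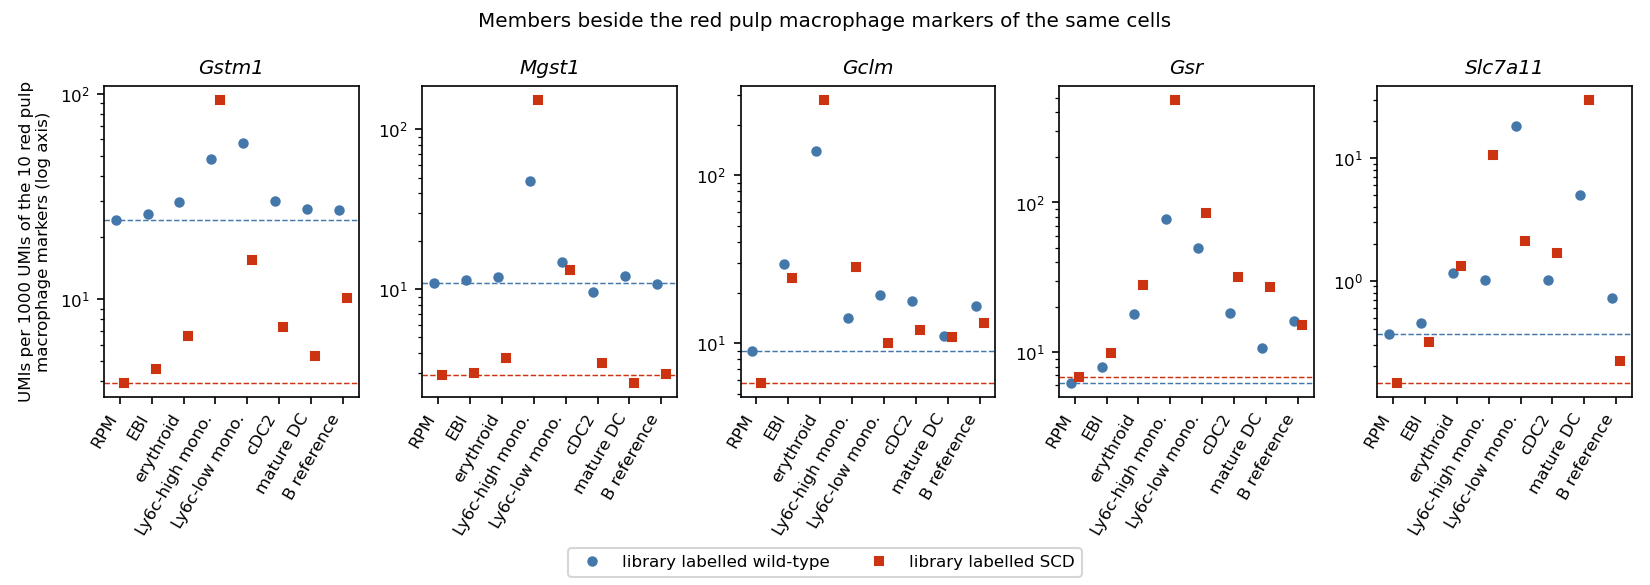
UMIs of 5 members for each 1000 UMIs of the 10 red pulp macrophage markers in the same cells (log axis), by cell class and library; dashed lines mark the ratio in RPM-like cells of each library. Mgst1 lies near its line in every class other than the monocytes. Slc7a11 and Gsr lie above their lines in every class other than RPM-like cells, and Gsr lies furthest above in the monocytes.

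Within single macrophage clusters Gstm1 differed as in the classes. The 50 cells of the wild-type-labelled library in RPM-like cluster 25 had 450.2 CPM of Gstm1 and the 1562 of the SCD-labelled library had 109 CPM. The 47 cells of the SCD-labelled library in RPM-like cluster 2 had 133 CPM, beside 852 CPM in the 3545 others. Mgst1 in cluster 25 stood at 132 and 82.8 CPM, with intervals that overlapped. In EBI-like cluster 16, with 1343 and 169 cells, Gstm1 stood at 481 and 55.1 CPM, Mgst1 at 205 and 40.2 CPM and Gpx4 at 491 and 136 CPM. Gclm in that cluster stood at 945 and 842 CPM and Gpx1 at 6746 and 8485 CPM, so the EBI-like difference of Gclm (608 to 412 CPM) was smaller within this cluster. Gpx1 in cluster 16 was above the erythroid-like class, at 5763 and 5412 CPM. Gclm there was also above that class, at 876 and 817 CPM, with overlapping intervals in the SCD-labelled library. The 677 cells of the SCD-labelled library in EBI-like cluster 21 had 267 CPM of Gclm and 95.3 CPM of Gclc. That cluster held 8 cells of the other library, so it allows no comparison within it. EBI-like cluster 5 had 545 and 549 CPM of Gclm and 389 and 35.2 CPM of Gstm1. In it 44.9% of cells were marked as doublets, those of the wild-type-labelled library only by a cut at the top 10% of scores.

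**Figure D4:**
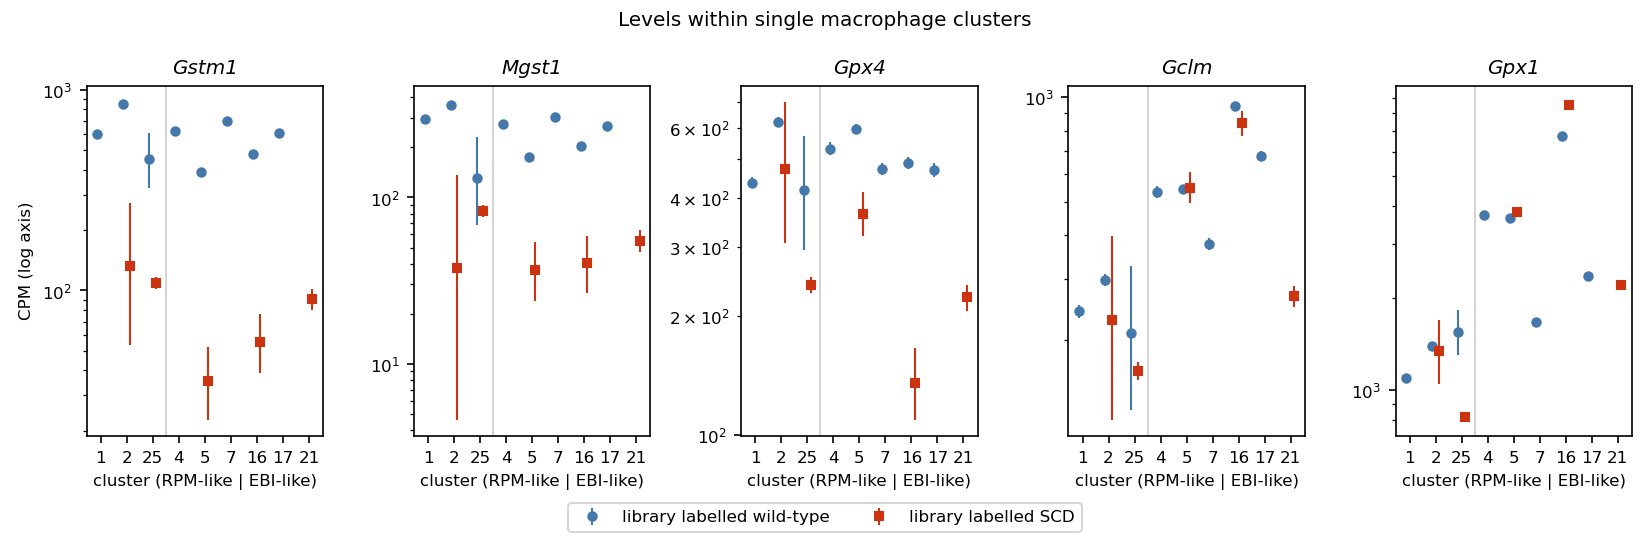
CPM (log axis) of 5 members in each RPM-like cluster (1, 2, 25) and EBI-like cluster (4, 5, 7, 16, 17, 21), for libraries with at least 40 cells in the cluster, with 95% exact Poisson intervals (counting error only). Squares (SCD-labelled library) lie below circles (wild-type-labelled library) for Gstm1 in clusters 2, 5, 16 and 25, the 4 with both libraries shown.

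Over 9 members and 7 classes, 22 of 63 log2 ratios were lower by at least 2-fold in the SCD-labelled library and 2 were higher. Mgst1 in erythroid-like, cDC2-like and mature DC-like cells, where it followed the macrophage markers in both libraries, makes up 3 of the 22. Gstm1 in the same classes, where it was below the B cell reference in the SCD-labelled library, makes up another 3. Gclm in cDC2-like cells, at 1.10 and 0.876 times the reference, is also among the 22. Gss in erythroid-like cells, at 1.40 and 1.14 times the reference, is among them too. So is Gclm in mature DC-like cells, at 10.95 and 10.8 UMIs for each 1000 macrophage marker UMIs. 61 of the 63 had at least 100 UMIs over both libraries, and the other 2 were Gss in mature DC-like and Slc7a11 in cDC2-like cells. In RPM-like cells 4 of 9 members (Slc7a11, Gpx4, Gstm1, Mgst1) were lower by at least 2-fold, beside 4.27% of the 9985 genes tested, and none was higher, beside 8.94%. All genes tested there had a median log2 ratio of 0.19, so the ratios of the members lie that much further down against the bulk of genes. EBI-like cells had 3 of 9 lower, Gpx4, Gstm1 and Mgst1 (beside 5.83%) and none higher (beside 4.49%). Erythroid-like cells had 3 of 9 lower, Gss, Gstm1 and Mgst1 (beside 8.52%; 0.669% higher). Ly6c-high monocyte-like cells had 2 of 9 lower, Gclm and Gstm1 (beside 5.16%), and 1 higher, Slc7a11 (beside 2.64%). Ly6c-low monocyte-like cells had 4 of 9 lower, Gclm, Gclc, Slc7a11 and Gstm1 (beside 2.3%; 2.54% higher). Of the 8 members tested in each DC class, Gclm, Gstm1 and Mgst1 were the 3 lower in cDC2-like cells (beside 2.16%, with 0.935% higher). All 3 stood there at 0.689 to 1.13 times the reference, so they were not read as a difference of cDC2-like cells. In mature DC-like cells the same 3 were lower (beside 5.2%) and Slc7a11 was the 1 higher (beside 1.94%).

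Of 124 other genes of glutathione and antioxidant metabolism in 7 lists, 92 could be tested in RPM-like cells (a sum of 100 UMIs or more), and 13 of them were lower and 2 higher by at least 2-fold, beside 4.27% and 8.94% of all genes tested there. In erythroid-like cells 17 were lower, 1 of them (Chac1, a glutathione-degrading enzyme) with 108 UMIs in the wild-type-labelled library and 0 in the other, and 2 higher of 88 (beside 8.52% and 0.669%). EBI-like cells had 22 lower and 1 higher of 99 (beside 5.83% and 4.49%), and Ly6c-high monocyte-like cells 12 and 1 of 77 (beside 5.16% and 2.64%). Ly6c-low monocyte-like cells had 16 and 0 of 70 (beside 2.3% and 2.54%), mature DC-like cells 19 and 1 of 65 (beside 5.2% and 1.94%). The 3 lower and 0 higher of 80 in cDC2-like cells stood near the background of 2.16% and 0.935%. The cDC2-like count rose to between 11 and 18 in several other ways of processing. The summed macrophage markers also fell, from 6284 to 2917 CPM in erythroid-like and from 7534 to 1760 CPM in Ly6c-high monocyte-like cells. In Ly6c-low monocyte-like cells they fell from 11790 to 7111 CPM, and in mature DC-like cells from 10400 to 3578 CPM. Their part in the list counts was not tested. The lists were chosen with earlier results of these data known.

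The list of NRF2 and its known targets had its lowest median, also the lowest of the 7 lists in any class, in Ly6c-low monocyte-like cells. There 9 of 16 tested genes of the NRF2 list were lower by at least 2-fold, beside 2.3% of all genes tested. The median log2 ratio of the list was -1.13, beside 0.10 for all genes tested. Txnrd1, thioredoxin reductase, went from 287 to 89.2 CPM (-1.68, -1.88 to -1.49), and Srxn1, sulfiredoxin, from 48.3 to 12.8 CPM (-1.92, -2.44 to -1.42). Fth1, ferritin heavy chain, went from 8556 to 2992 CPM (-1.52, -1.55 to -1.48), and Hmox1, heme oxygenase, from 5993 to 2359 CPM (-1.34, -1.38 to -1.31). The regulators themselves were near level: Nfe2l2, which encodes NRF2, stood at 312 and 319 CPM (0.03, -0.11 to 0.17), and its repressor Keap1 at 79.7 and 63.0 CPM (-0.34, -0.63 to -0.04). Hmox1 stood at 508 and 332 UMIs for each 1000 macrophage marker UMIs in these cells and at 530 and 367 in the B cell reference. Txnrd1, at 24.3 and 12.6, lay above its RPM-like ratio of 7.39 and 6.20. Beside its B cell reference ratio of 20.7 and 21.4 it lay above in the wild-type-labelled library and below in the SCD-labelled library.

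RPM-like cells had 2 of 16 genes of the same list lower, beside 4.27% of all genes tested, and a median of -0.44. The genes lower were Ftl1 (11700 to 5760 CPM, -1.02, -1.04 to -1.01) and Fth1 (11000 to 5226 CPM, -1.07, -1.09 to -1.06). Erythroid-like cells had 5 of 16 lower (beside 8.52%, median -0.51), EBI-like 5 of 18 (beside 5.83%, -0.61) and Ly6c-high monocyte-like 3 of 16 (beside 5.16%, -0.64). There were 1 of 15 lower in cDC2-like (beside 2.16%, -0.21) and 6 of 13 in mature DC-like cells (beside 5.2%, -0.76). The part of the lower macrophage marker sum in the counts of this list in erythroid-like, monocyte-like and DC-like cells was not tested. Srxn1 in EBI-like cells went from 77.9 to 18.1 CPM (-2.11, -2.44 to -1.79), while in Ly6c-high monocyte-like cells it stood at 9.14 and 15.5 CPM (0.76, 0.25 to 1.28). Mafg, a partner of NRF2, stood at 104 and 176 CPM in RPM-like cells (0.75, 0.65 to 0.86).

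**Figure D5:**
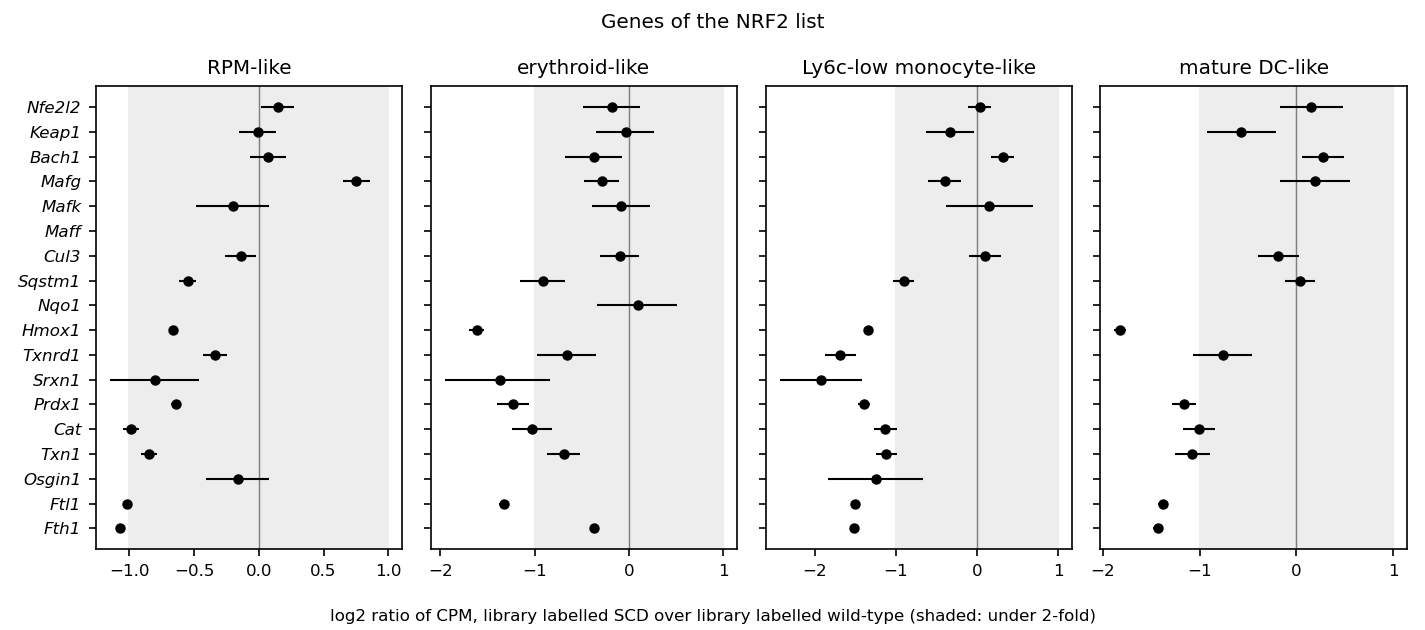
Log2 ratio of CPM, SCD-labelled over wild-type-labelled library, of the NRF2 list's genes with at least 100 UMIs in 4 cell classes, with 95% intervals for counting error only; the shaded band is under 2-fold. In Ly6c-low monocyte-like cells 9 of 16 genes lie left of the band, while Nfe2l2 lies at 0.03.

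Among NADPH-supplying enzymes, Me1, malic enzyme, was the list gene with the largest ratio in RPM-like cells, at 51.8 and 2.94 CPM (-4.14, -4.82 to -3.53; 870 and 22 UMIs). Me1 was the 1 of 14 genes of that list lower by 2-fold in RPM-like cells, beside 4.27% of all genes tested. The list had 3 of 13 lower in erythroid-like cells (Me1, Pgd and Idh1, beside 8.52%). It had 1 of 11 lower in mature DC-like cells (Idh2, beside 5.2%) and none of 11 in Ly6c-low monocyte-like cells (beside 2.3%). Idh1 in erythroid-like cells went from 82.5 to 27.8 CPM (-1.57, -2.09 to -1.09). For each 1000 macrophage marker UMIs it stood there at 13.1 and 9.52, below the 15.7 and 13.5 of the B cell reference. The part of macrophage RNA in that ratio was not tested. Nadk, which makes NADP, stood at 319 and 542 CPM in Ly6c-high monocyte-like cells (0.77, 0.68 to 0.85). Other transferases and peroxidases had 4 of 13 genes lower in RPM-like cells (beside 4.27%). Among them were Ltc4s, leukotriene C4 synthase (21.8 to 3.07 CPM, -2.83, -3.51 to -2.22), and Gpx3 (45.9 to 18.2 CPM, -1.34, -1.61 to -1.07). Of the 12 tested in erythroid-like cells, Gstt1 was the 1 higher by 2-fold (beside 0.669%), at 9.13 and 23.1 CPM (1.34, 0.72 to 1.92).

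Turnover and transport genes had 1 of 20 lower by 2-fold in RPM-like cells, near the 4.27% of all genes tested there. They had 3 of 17 lower in erythroid-like (beside 8.52%), 3 of 15 in Ly6c-low monocyte-like (beside 2.3%) and 4 of 16 in mature DC-like cells (beside 5.2%). Abcc1, an exporter of glutathione conjugates, went from 81.8 to 29.98 CPM in Ly6c-low monocyte-like cells (-1.45, -1.80 to -1.10). Slc3a2, the chain that pairs with xCT, went from 124 to 58.8 CPM there (-1.08, -1.34 to -0.82), in a class where Slc7a11 was also lower. Whether single cells held both was not tested. Cysteine and glutamate supply had Slc38a1, a glutamine importer, at 29.6 and 107.6 CPM in RPM-like cells (1.86, 1.70 to 2.03), below the 251 and 279 CPM of the B cell reference. Of the selenoprotein synthesis list, Selenop in mature DC-like cells went from 2305 to 171 CPM (-3.75, -3.88 to -3.62), at 222 and 47.9 UMIs for each 1000 macrophage marker UMIs beside 209 and 50.1 in EBI-like cells and 198 and 59.9 in the reference. Lrp8, a Selenop receptor, stood at 56.2 and 123 CPM in those cells (1.13, 0.82 to 1.45), above the 7.14 and 1.86 CPM of the reference. In the ferroptosis list, Tfrc, the transferrin receptor, went from 55.0 to 10.7 CPM in Ly6c-high monocyte-like cells (-2.36, -2.82 to -1.93), below the reference at 120 and 50.3 CPM, while Gch1, which makes an antioxidant cofactor, stood at 166 and 340.1 CPM in erythroid-like cells (1.04, 0.89 to 1.18).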

How the data were processed

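Spleen cells enriched with anti-F4/80 beads were profiled by 10x 3' chemistry. The authors counted UMIs with Cell Ranger (4.0.0 in the methods, 3.1.0 in the matrix headers; GRCm38.p6 in the submitters' processing notes) and deposited raw counts per gene and barcode. From these counts, barcodes were kept that had 500 to 5000 genes, less than 15% of UMIs from mitochondrial and less than 30% from ribosomal-protein genes. They were scaled with scran 1.30.0, and clustered without the members and the hemoglobin, sex-linked and list genes (2000 variable genes, 30 components, 15 neighbours, Leiden resolution 1; scanpy 1.11.5). Limits for names were set after the clusters were seen: macrophage markers at 4 times and erythroid markers at 2 times the B cell reference, other classes at least 3 markers at 2 times the remaining cells. Doublets stayed in. UMIs were summed per class as CPM, with exact Poisson intervals for levels, exact conditional binomial intervals for ratios and exact binomial intervals for shares. Called means past 2-fold. In simulated data 95.7% of the intervals held the true ratio for RPM-like cells (9985 genes). Named list genes were those with the largest ratio in each direction in a list, up to 3, and any past 5-fold in RPM-like cells. Members and lists were chosen with earlier results of these data known.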

Additional observations from a re-analysis of the deposited data

Results flagged for a closer look

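Slc7a11 was past 2-fold in opposite directions in different cell classes, with at least 20 UMIs in each library. The log2 ratio, SCD-labelled over wild-type-labelled library, was -3.85 in Ly6c-low monocyte-like cells and -1.39 in RPM-like cells, but 1.03 in mature DC-like cells and 1.28 in Ly6c-high monocyte-like cells. The difference between the classes was not tested, since each rests on 1 library a condition. The marker sum of red pulp macrophages also fell between the libraries, from 11790 to 7111 CPM in Ly6c-low monocyte-like and from 10400 to 3578 CPM in mature DC-like cells, and its part in the result was not tested.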

How the results depend on the processing

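Of 24 member ratios past 2-fold, 23 kept their sign and 19 stayed past 2-fold in each of 10 alternatives. The exceptions were Gclm and Slc7a11 in Ly6c-high monocyte-like, Gclc in Ly6c-low monocyte-like, Gss in erythroid-like and Slc7a11 in mature DC-like cells; Slc7a11 in Ly6c-high monocyte-like cells reversed to -0.50 with each library clustered alone. Of 194 counts over 14 settings, 163 stayed within 1.5 times, and 8 of 180 highest classes moved; for the rest the cause was not tested. EBI-like cells had 3 members past 2-fold, and 5 at Leiden resolution 0.5, without doublets, with all variable genes and with each library clustered alone, and 6 at a minimum of 200 genes and with cells weighted equally. Ly6c-high monocyte-like cells had 3, and 1 at resolution 2, at a minimum of 1000 genes, without doublets and with total-count size factors. The 2 ratios higher by 2-fold became 1 under those 4 settings and with each library clustered alone, and 0 at 200 genes. The cDC2-like list count of 3 became 16 (resolution 0.5), 15 (resolution 2), 16 (200 genes), 11 (1000 genes), 18 (without doublets), 16 (each library alone), 12 (total-count size factors) and 11 (a minimum of 20 UMIs). At a minimum of 20 UMIs the list counts were 23 instead of 15 in RPM-like, 25 instead of 16 in Ly6c-low monocyte-like and 34 instead of 20 in mature DC-like cells, and at 500 UMIs 12 instead of 19 in erythroid-like, 10 in Ly6c-low monocyte-like and 12 in mature DC-like cells, by fewer or more genes tested. With all variable genes the erythroid-like count was 12. No paired analysis was possible because each condition held 1 library. Depth limits Gss and Slc7a11 most: the SCD-labelled library held in its erythroid-like cells 12 and 5 UMIs of these genes.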
